A study of Mus musculus with 6 samples.

Results

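The collagen chain genes of mouse were examined in RNA-seq of bone marrow cells. They were chosen by name, as every gene of the deposited table whose symbol is Col followed by a number, the letter a and a number. This gave 44 genes of the 56496 in the table, and every one of them is accounted for here. The groups were marrow of mice given Onway by gavage for 2 weeks (libraries Onway 1, Onway 2 and Onway 3) and marrow of untreated mice (libraries Control 4, Control 5 and Control 6). All were female BALB/c mice whose 4T1 tumour, grown from a mammary carcinoma line of mouse, had been removed by surgery. What Onway is made of was not stated in the sources used here. Onway libraries are labelled day 14 and Control libraries day 0, and the effects of treatment and of day cannot be told apart. The labels do not say that each library is a separate mouse, and p-values here reflect only how far libraries of a group differ. The extraction text in the labels also describes a culture with dexamethasone, isobutylmethylxanthine and insulin, and whether these marrow cells were cultured is not stated. Collagen genes were compared between the groups by the assembly their chains form.

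Collagens are secreted proteins in which chains built on a repeat of glycine followed by a pair of other residues wind into a triple helix. Fibrillar collagens (types I, II, III, V, XI, XXIV and XXVII) assemble into banded fibrils, and type I is the main protein of bone while type II is that of cartilage. Type IV forms the sheet of basement membranes under endothelium and around muscle fibres, types VIII and X form networks, and type VI forms beaded filaments around cells. The fibril-associated collagens (FACIT, for example types XII and XIV) sit on fibrils, and the transmembrane collagens (types XIII, XVII, XXIII and XXV) remain in the cell membrane. In bone, osteoblasts make type I collagen. In marrow, stromal cells and endothelium contribute matrix, and most blood cells make little of it.

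The glycine repeat can be read in the coding exons, and it separates the fibrillar class from the basement membrane class. Sequences and exons are those of the GENCODE M21 coding transcripts on GRCm38. The first 5 lines below show a 54-base exon of the helix of each fibrillar gene on which the results turn, and the last shows an exon of Col4a1 in which the repeat is broken. They are exon 8 of Col1a2 (chr6:4515481-4515534, plus strand), exon 8 of Col1a1 (chr11:94939904-94939957, plus strand), exon 6 of Col2a1 (chr15:97998545-97998598, minus strand), exon 6 of Col5a2 (chr1:45434892-45434945, minus strand), exon 15 of Col5a1 (chr2:27965251-27965304, plus strand) and exon 9 of Col4a1 (chr8:11244486-11244569, minus strand). Each is written 5′ to 3′ on the coding strand and starts on a codon, and the capitals mark glycine codons (GGN).
Col1a2: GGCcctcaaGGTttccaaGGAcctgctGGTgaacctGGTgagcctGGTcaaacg
Col1a1: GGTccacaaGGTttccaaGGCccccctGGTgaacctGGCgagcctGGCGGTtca
Col2a1: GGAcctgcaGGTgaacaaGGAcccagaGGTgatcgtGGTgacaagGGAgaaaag
Col5a2: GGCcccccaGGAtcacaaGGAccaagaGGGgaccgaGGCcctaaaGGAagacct
Col5a1: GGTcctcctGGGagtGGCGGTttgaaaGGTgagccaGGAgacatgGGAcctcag
Col4a1: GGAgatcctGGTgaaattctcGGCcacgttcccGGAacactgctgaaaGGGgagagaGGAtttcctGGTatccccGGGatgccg
The fibrillar exons hold 6 or 7 glycine codons among 18 codons, and the Col4a1 exon holds 8 among 28, with gaps of uneven length between them. Over the whole coding sequence, the longest unbroken run of triplets that start with a glycine codon spanned 216 to 344 triplets in the 11 fibrillar genes (median 338), and 39 to 66 triplets in the 6 basement membrane genes. Exons of 54 bases made up 41.18% to 55.0% of the exons of fibrillar genes and 2.08% to 5.66% of those of basement membrane genes. Genes of both classes were lower in Onway.

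Collagen RNA was lower in marrow from Onway mice than in Control marrow, by 10.5-fold in the mean of the summed genes. On the log2(TPM + 1) scale the largest fold changes among the tested genes were those of Col1a2, Col1a1 and Col2a1, the fibril chains of bone and cartilage. The ratio of mean TPM, which does not damp low values, was largest for Col11a1, at 196.6 for Control over Onway, where Onway had at most 0.05 TPM. The TPM of the 44 genes summed to 30.36, 39.87 and 33.02 in Onway 1, 2 and 3, against 355.34, 601.05 and 130.26 in Control 4, 5 and 6, so the groups did not overlap. Without Control 5 the fold of the means was 7.05. TPM is transcript abundance scaled to the same total in each library, and the authors deposited it without read depth. Of the 44 genes, 35 had a lower mean in Onway, 7 had a higher mean and 2 had equal means. In 23 genes every Onway library was below every Control library, and in 1 gene (Col6a4) every Onway library was above. Among all genes above 0 TPM in any library, 10.9% were lower without overlap. Fewer cells of a type and less RNA per cell cannot be told apart in these libraries.

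Of the 44 genes, 20 averaged at least 1 TPM across the 6 libraries and were tested, and 24 were not. In limma's test on log2(TPM + 1), 8 of the 20 were lower in Onway at an adjusted p under 0.05 and 0 were higher, against 2.99% lower and 0.233% higher among all 14192 tested genes. At an unadjusted p under 0.05 the collagen counts were 13 lower and 0 higher. Of the 20, 9 reached the filter only through their Control values, 6 of the 8 called genes among them, so these counts describe the tested genes and carry no weight for the class as a whole. With no filter, 43 collagen genes entered the fit and 8 were lower, against 1.56% of all genes. The called genes were Col1a2, Col2a1 and Col5a2 (fibrillar), Col4a1 and Col4a2 (basement membrane), Col6a1 and Col6a2 (beaded filament) and Col12a1 (FACIT). The count depended on the libraries: it was 4 without Onway 2, 4 without Onway 3, 5 without Onway 1 and 5 without Control 4. It was 2 with a filter at a mean of 5 TPM and 13 with library quality weights.

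**Figure D1:**
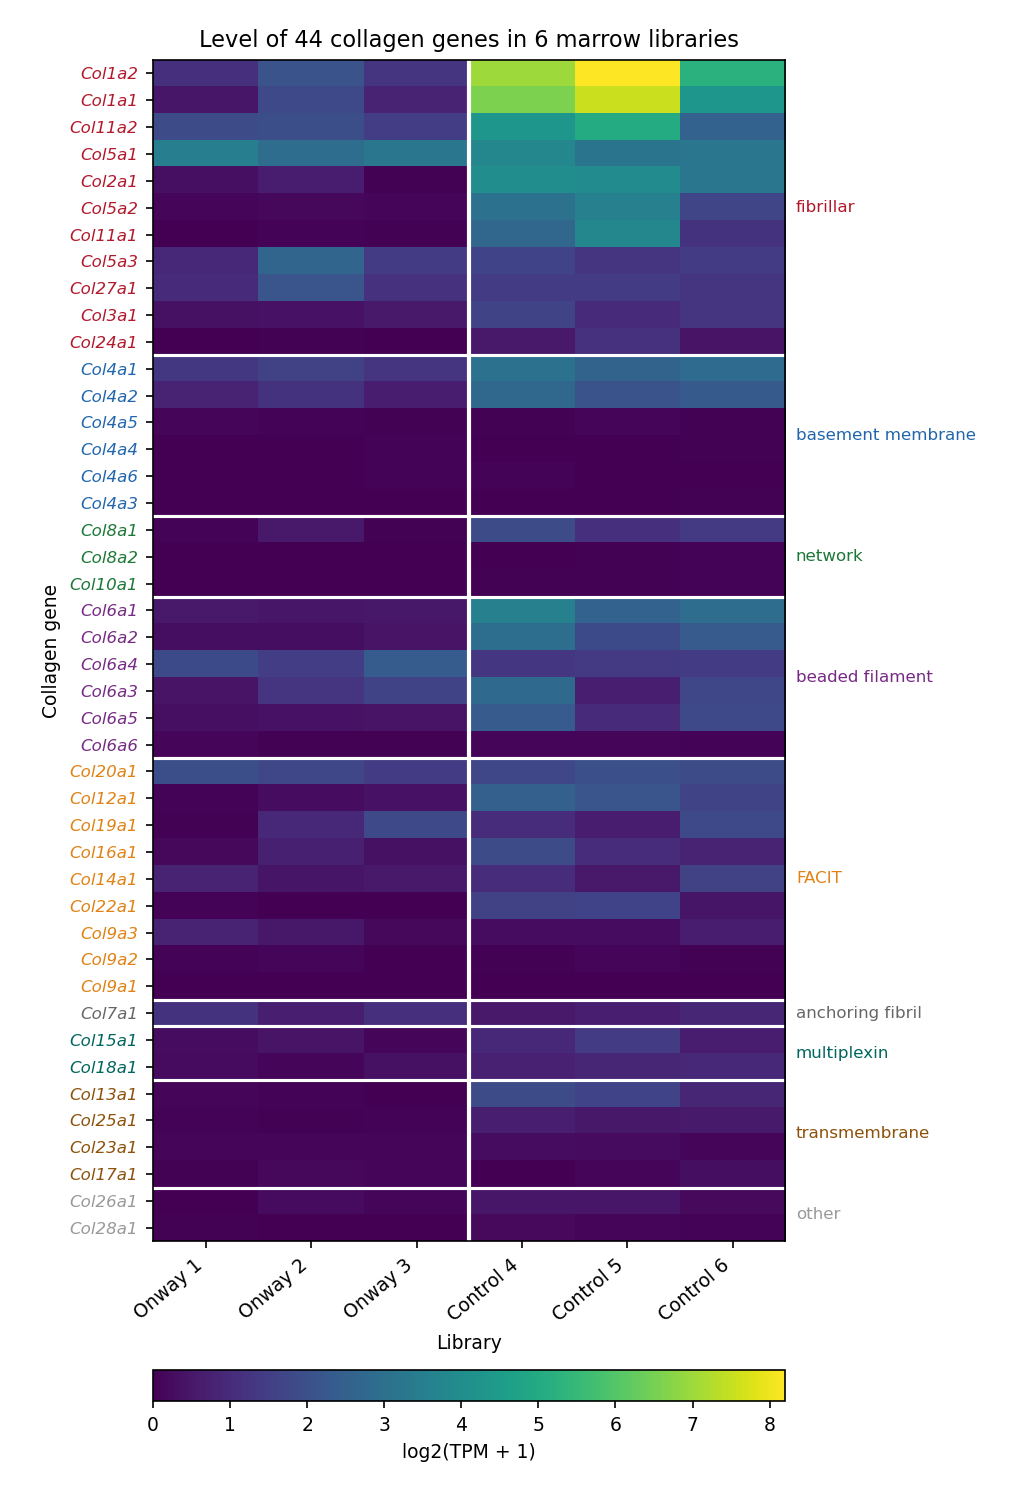
Each row is 1 of the 44 collagen genes, grouped by class, and each column is 1 library, with Onway left of Control. Colour gives log2(TPM + 1). Col1a2 and Col1a1 are brightest in the Control columns, with up to 294.00 TPM for Col1a2 in Control 5, while Col5a1 is the brightest row in the Onway columns.

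A limit bears on every value below. The authors also deposited a mean per group, and each equals the mean of 4 values, so a further value per group can be computed as 4 times that mean minus the 3 libraries. It is not a library here and entered no test. For each of the 8 called genes the further Control value was below all 3 Control libraries. Over the 44 genes the further values summed to 43.15 TPM in Onway and 40.2 TPM in Control, and they did not show the difference between the libraries. The further values of each tested collagen gene, marker list and collagen pathway list are given beside their libraries.

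The fibrillar class had 11 genes, 9 of them tested, and 3 were lower in Onway. Col1a1 and Col1a2 encode the chains of type I collagen, the main fibril of bone. Col1a2 (ENSMUSG00000029661, chromosome 6, 4504814 to 4541544) had 1.14, 3.27 and 1.40 TPM in Onway 1, 2 and 3, against 127.46, 294.00 and 36.46 TPM in Control 4, 5 and 6. Every Onway library was far below every Control library, and Control 5 held the most. Its log2 fold change was −5.33 (SE 0.78, limma adjusted p = 0.0259). Col1a1 (ENSMUSG00000001506, chromosome 11, 94936224 to 94953042) had 0.42, 2.48 and 0.75 TPM in Onway 1, 2 and 3, against 95.82, 185.75 and 18.94 TPM in Control 4, 5 and 6. The groups did not overlap and the fold was close to that of Col1a2, but the spread among Control libraries was wide. Its log2 fold change of −5.12 (SE 0.89) missed the threshold (limma adjusted p = 0.0516), and without Control 6 it passed at an adjusted p of 0.00259. The call of Col1a2 ended without Control 4 (adjusted p = 0.116), without Onway 1 (0.124), without Onway 2 (0.060) and without Onway 3 (0.0837). The further values were 1.54 TPM in Onway and 2.41 TPM in Control for Col1a2, and 0.54 TPM in Onway and 0.43 TPM in Control for Col1a1.

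Col2a1, the cartilage fibril chain (ENSMUSG00000022483, chromosome 15, 97975602 to 98004695), had the smallest p of the collagen genes. It had 0.27, 0.53 and 0.03 TPM in Onway 1, 2 and 3, against 15.38, 14.53 and 8.42 TPM in Control 4, 5 and 6. The Control libraries lay closer together than those of type I, though Control 6 was well below the others. Means were 0.277 ± 0.250 TPM in Onway and 12.8 ± 3.80 TPM in Control (SD, n = 3 each), with a log2 fold change of −3.41 (SE 0.28, limma adjusted p = 0.000885). It was called under all 18 alternatives tried. The authors' means left further values of 0.03 TPM in Onway and 0.02 TPM in Control. Genes that mark chondrocytes were low in both groups: the 9 genes of that list summed to 1.19, 1.08 and 0.81 TPM in Onway 1, 2 and 3, against 3.41, 3.53 and 1.74 TPM in Control 4, 5 and 6. The further values were 1.73 TPM in Onway and 0.98 TPM in Control. Acan and Hapln1 were at 0 in all Onway libraries, Epyc and Ucma were at 0 in all 6, and 0 of the 1 tested gene (Cnmd, log2 fold change −0.90, limma adjusted p = 0.172) passed. The part of chondrocyte RNA in the Col2a1 value was not tested.

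Col11a1 and Col11a2 encode chains of type XI, which nucleates cartilage fibrils and also enters bone. Col11a1 had 0.02, 0.05 and 0.03 TPM in Onway 1, 2 and 3, against 5.52, 12.84 and 1.30 TPM in Control 4, 5 and 6. Col11a2 had 2.77, 2.92 and 1.82 TPM in Onway 1, 2 and 3, against 18.90, 32.00 and 4.96 TPM in Control 4, 5 and 6. Neither overlapped between the groups, and neither passed the test (log2 fold change −2.52 and −2.18, limma adjusted p = 0.109 and 0.187). Control 6 was the lowest Control library for both, and without it the adjusted p was 0.00460 for Col11a1 and 0.00340 for Col11a2. The authors' means left further values of 0.05 TPM in Onway and 0.14 TPM in Control for Col11a1, and 2.53 TPM in Onway and 1.37 TPM in Control for Col11a2.

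The type V chains, which regulate the width of type I fibrils, differed from each other. Col5a2 (ENSMUSG00000026042, chromosome 1, 45374321 to 45503282) had 0.09, 0.14 and 0.09 TPM in Onway 1, 2 and 3, against 7.57, 10.81 and 2.26 TPM in Control 4, 5 and 6. All Onway libraries were near 0, and the log2 fold change was −2.64 (SE 0.46, limma adjusted p = 0.0249). Its further values were 0.21 TPM in Onway and 0.27 TPM in Control. The call ended when Control 4 (adjusted p = 0.0742), Onway 1 (0.0923), Onway 2 (0.115) or Onway 3 (0.101) was left out. Col5a1 (ENSMUSG00000026837, chromosome 2, 27886425 to 28039514) had 10.44, 6.64 and 8.41 TPM in Onway 1, 2 and 3, against 12.77, 7.84 and 8.40 TPM in Control 4, 5 and 6. Its groups overlapped almost fully, and it was the highest collagen gene in each Onway library. Its log2 fold change was −0.16 (SE 0.24, limma adjusted p = 0.833), and it turned to 0.04 without Control 4. Further values for it were 10.41 TPM in Onway and 13.22 TPM in Control. The ratio of Col5a2 to Col5a1 was 0.009, 0.021 and 0.011 in Onway 1, 2 and 3, against 0.593, 1.379 and 0.269 in Control 4, 5 and 6. Col5a3 had 0.88, 5.45 and 1.71 TPM in Onway 1, 2 and 3, against 2.15, 1.34 and 1.66 TPM in Control 4, 5 and 6. Only Onway 2 stood apart, and the log2 fold change of 0.25 (limma adjusted p = 0.865) turned to −0.26 without it. The further values of Col5a3 were 1.24 TPM in Onway and 1.55 TPM in Control.

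Col27a1, a fibrillar chain of cartilage, behaved like Col5a3. It had 0.98, 3.50 and 1.23 TPM in Onway 1, 2 and 3, against 1.70, 1.68 and 1.33 TPM in Control 4, 5 and 6, with a log2 fold change of 0.08 (limma adjusted p = 0.951) that became −0.29 without Onway 2. The further value was 0.76 TPM in each group. The untested fibrillar genes were Col3a1, the chain of reticular fibres, and Col24a1. Col3a1 had 0.30, 0.32 and 0.48 TPM in Onway 1, 2 and 3, against 2.19, 0.95 and 1.35 TPM in Control 4, 5 and 6. It was lower without overlap but stayed far below type I in Control, and its further value was 0.55 TPM in each group. Col24a1 reached 0.03 TPM in Onway 2 and was at 0 in Onway 1 and 3, against 0.48, 1.24 and 0.35 TPM in Control 4, 5 and 6.

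The basement membrane class had 6 genes, and the pair that encodes the widespread form of type IV collagen was lower in Onway. Col4a1 (ENSMUSG00000031502, chromosome 8, 11198423 to 11312826) had 1.54, 2.04 and 1.36 TPM in Onway 1, 2 and 3, against 7.40, 5.14 and 6.34 TPM in Control 4, 5 and 6. Col4a2 (ENSMUSG00000031503, chromosome 8, 11312805 to 11449287) had 0.71, 1.28 and 0.55 TPM in Onway 1, 2 and 3, against 5.67, 3.32 and 3.96 TPM in Control 4, 5 and 6. The groups did not overlap in either gene. In Col4a2, retained-intron transcripts held 0.66 TPM of the Onway 2 value and 1.65 TPM of the Control 4 value. The log2 fold change was −1.46 for Col4a1 (SE 0.21, limma adjusted p = 0.00897) and −1.52 for Col4a2 (SE 0.25, limma adjusted p = 0.0186). Both genes are read head to head and their annotated first exons overlap by 22 bases (chr8:11312805-11312826), a stretch whose reads cannot be assigned without strand. The ratio of Col4a1 to Col4a2 was 2.169, 1.594 and 2.473 in Onway 1, 2 and 3, against 1.305, 1.548 and 1.601 in Control 4, 5 and 6, so the ranges overlapped. The call of Col4a2 ended without Control 4 (adjusted p = 0.0544), without Control 6 (0.0602), without Onway 1 (0.0570) and without Onway 3 (0.0748). Col4a1 kept its call with any 1 library left out. The further values were 2.27 TPM in Onway and 2.31 TPM in Control for Col4a1, and 1.09 TPM in Onway and 1.71 TPM in Control for Col4a2.

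The other type IV chains are known from kidney, lung and other specialised membranes. Col4a3, Col4a4, Col4a5 and Col4a6 had at most 0.07 TPM in any library and were not tested. Col4a3 and Col4a4 lie head to head with 71 bases between them, and Col4a5 and Col4a6 with 1308 bases between them. Of the 3 head-to-head pairs, the Col4a1 and Col4a2 pair was the one with a mean of 1 TPM or more.

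The beaded filament class, type VI, held genes that fell and genes that did not. Col6a1 (ENSMUSG00000001119, chromosome 10, 76708792 to 76726168) had 0.46, 0.40 and 0.45 TPM in Onway 1, 2 and 3, against 10.80, 5.03 and 6.63 TPM in Control 4, 5 and 6. Col6a2 (ENSMUSG00000020241, chromosome 10, 76595762 to 76623630) had 0.24, 0.24 and 0.34 TPM in Onway 1, 2 and 3, against 6.78, 2.55 and 4.14 TPM in Control 4, 5 and 6. The Onway libraries of both were nearly equal to each other, and the Control libraries kept the same order in both genes. The log2 fold change was −2.51 for Col6a1 (SE 0.27, limma adjusted p = 0.00250) and −2.04 for Col6a2 (SE 0.30, limma adjusted p = 0.0115). Col6a1 kept its call under all 17 alternatives in which it was tested, while the call of Col6a2 ended without Onway 2 (adjusted p = 0.0694) and without Onway 3 (0.0570). The authors' means left further values of 1.28 TPM in Onway and 1.78 TPM in Control for Col6a1, and 0.67 TPM in Onway and 1.22 TPM in Control for Col6a2. The ratio of Col6a1 to Col6a2 was 1.917, 1.667 and 1.324 in Onway 1, 2 and 3, against 1.593, 1.973 and 1.601 in Control 4, 5 and 6.

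Type VI also needs a further chain, encoded by Col6a3 or by the related Col6a4, Col6a5 and Col6a6. Col6a3 had 0.34, 1.34 and 2.21 TPM in Onway 1, 2 and 3, against 6.00, 0.62 and 2.37 TPM in Control 4, 5 and 6. Its groups overlapped, its log2 fold change was −0.64 (SE 0.58, limma adjusted p = 0.708), and its further values were 8.01 TPM in Onway and 0.36 TPM in Control. Col6a5 had 0.25, 0.32 and 0.35 TPM in Onway 1, 2 and 3, against 4.10, 0.96 and 2.54 TPM in Control 4, 5 and 6, without overlap. It missed the threshold (log2 fold change −1.33, limma adjusted p = 0.127) and passed it without Control 5 (0.0169), and its further values were 0.49 TPM in Onway and 0.56 TPM in Control. Col6a4 had 2.57, 1.79 and 4.27 TPM in Onway 1, 2 and 3, against 1.47, 1.61 and 1.72 TPM in Control 4, 5 and 6. It was the 1 collagen gene with every Onway library above every Control library, as 6.95% of all tested genes were, and its log2 fold change of 0.53 did not pass (limma adjusted p = 0.455). Its further values were 3.42 TPM in Onway and 1.86 TPM in Control. Col6a6 had at most 0.10 TPM in any library.

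The network class had 1 tested gene. Col8a1, a chain of the short-chain network around vessels, had 0.06, 0.46 and 0.04 TPM in Onway 1, 2 and 3, against 2.76, 1.18 and 1.60 TPM in Control 4, 5 and 6. The groups did not overlap, and the test missed its threshold (log2 fold change −1.24, SE 0.30, limma adjusted p = 0.0824). The further values were 0.27 TPM in Onway and 0.33 TPM in Control, both below the Control libraries. Col10a1, which marks hypertrophic cartilage, was at 0 in all Onway libraries and had 0.03 to 0.05 TPM in Control. Col8a2 had at most 0.06 TPM.

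Of the 9 FACIT genes, 3 were tested and Col12a1, which decorates type I fibrils, was lower in Onway. Col12a1 (ENSMUSG00000032332, chromosome 9, 79598991 to 79718831) had 0.06, 0.22 and 0.32 TPM in Onway 1, 2 and 3, against 4.67, 3.48 and 2.21 TPM in Control 4, 5 and 6. Its log2 fold change was −1.86 (SE 0.27, limma adjusted p = 0.010), and its further values were 0.25 TPM in Onway and 0.16 TPM in Control. The call ended without Onway 2 (adjusted p = 0.0564). Col20a1 had 2.96, 2.36 and 1.70 TPM in Onway 1, 2 and 3, against 2.32, 3.02 and 2.70 TPM in Control 4, 5 and 6 (log2 fold change −0.15, limma adjusted p = 0.817). Col19a1 had 0.03, 0.89 and 2.48 TPM in Onway 1, 2 and 3, against 1.05, 0.58 and 2.50 TPM in Control 4, 5 and 6 (log2 fold change −0.25, limma adjusted p = 0.885). The groups of both genes overlapped. The authors' means left further values of 3.05 TPM in Onway and 2.03 TPM in Control for Col20a1, and 0.66 TPM in Onway and 2.51 TPM in Control for Col19a1. Among the untested FACIT genes, Col16a1 had 0.12, 0.65 and 0.29 TPM in Onway 1, 2 and 3, against 2.67, 1.05 and 0.75 TPM in Control 4, 5 and 6. Col22a1, found at junctions of muscle with tendon, had 0.05, 0.02 and 0.01 TPM in Onway 1, 2 and 3, against 2.06, 2.11 and 0.39 TPM in Control 4, 5 and 6. Neither overlapped. Their further values were 0.78 TPM in Onway and 0.44 TPM in Control for Col16a1, and 0 TPM in each group for Col22a1. Col14a1 had 0.39 to 0.73 TPM in Onway and 0.47 to 1.98 TPM in Control, and Col9a3 had 0.13 to 0.78 TPM in Onway and 0.20 to 0.57 TPM in Control, so both overlapped. Col9a2 had at most 0.08 TPM, and Col9a1 was at 0 in all 6 libraries.

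The remaining classes had no tested gene. Col13a1, a transmembrane collagen of the neuromuscular junction, had 0.07, 0.05 and 0 TPM in Onway 1, 2 and 3, against 2.70, 2.11 and 0.84 TPM in Control 4, 5 and 6, with further values of 0.02 TPM in Onway and 0.07 TPM in Control. Col25a1, another transmembrane collagen, had 0.03 to 0.06 TPM in Onway and 0.44 to 0.60 TPM in Control, without overlap. Col23a1 (0.07 to 0.08 TPM in Onway, 0.07 to 0.22 TPM in Control) and Col17a1 (0.03 to 0.13 TPM in Onway, 0.02 to 0.23 TPM in Control) overlapped. The multiplexins Col15a1 and Col18a1 flank basement membranes, and both were lower in Onway without overlap. Col15a1 had 0.20, 0.35 and 0.08 TPM in Onway 1, 2 and 3, against 0.87, 1.66 and 0.54 TPM in Control 4, 5 and 6. Col18a1 had 0.17, 0.07 and 0.28 TPM in Onway 1, 2 and 3, against 0.67, 0.85 and 0.88 TPM in Control 4, 5 and 6. Col7a1, the anchoring fibril of skin, ran the other way, with 1.29, 0.61 and 1.16 TPM in Onway 1, 2 and 3, against 0.46, 0.62 and 0.83 TPM in Control 4, 5 and 6, and its groups overlapped. Col26a1, outside these classes, had 0, 0.17 and 0.10 TPM in Onway 1, 2 and 3, against 0.41, 0.40 and 0.16 TPM in Control 4, 5 and 6, with overlap. Col28a1 had 0 to 0.04 TPM in Onway and 0.06 to 0.16 TPM in Control, without overlap.

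**Figure D2:**
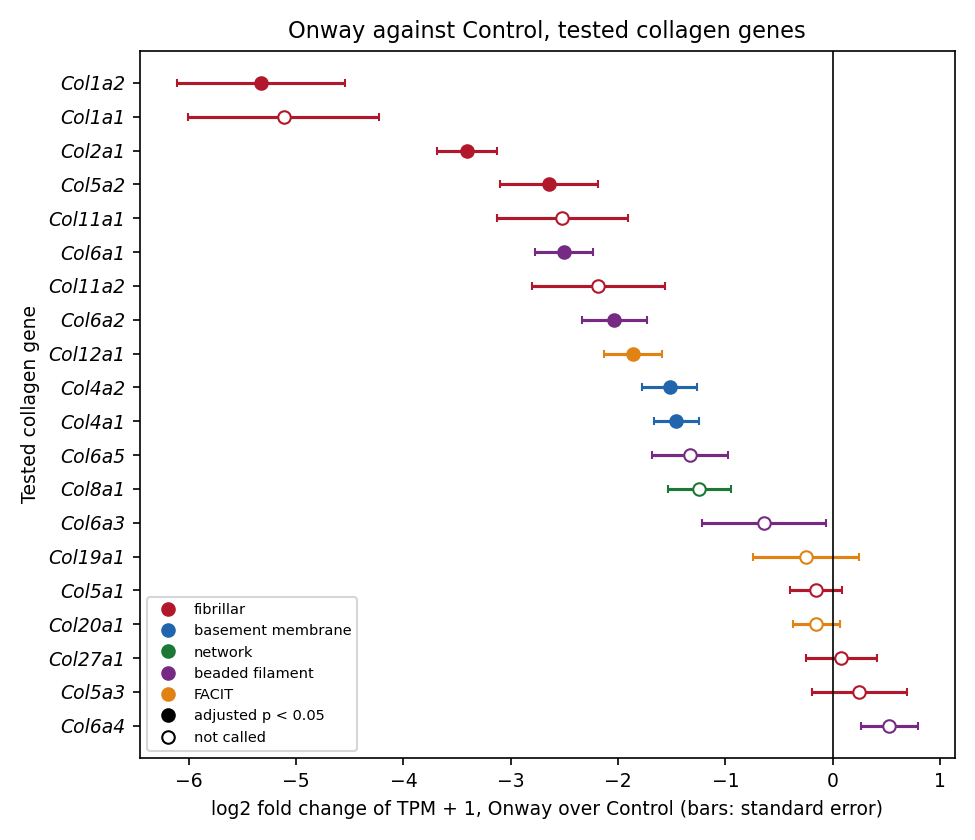
Points give the log2 fold change of TPM + 1, Onway over Control, of the 20 tested collagen genes, and bars give limma's standard error. Colours are classes, filled points passed the adjusted threshold and open points did not. The 8 filled points all lie left of 0, from −5.33 for Col1a2 to −1.46 for Col4a1.

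The classes differed in how far their sums separated. Fibrillar genes summed to 17.31, 25.33 and 15.95 TPM in Onway 1, 2 and 3, against 289.94, 562.98 and 85.43 TPM in Control 4, 5 and 6, a 16.0-fold lower mean in Onway that was 9.61-fold without Control 5. Basement membrane genes summed to 2.34, 3.40 and 2.08 TPM in Onway 1, 2 and 3, against 13.18, 8.55 and 10.41 TPM in Control 4, 5 and 6, a 4.11-fold lower mean. Beaded filament genes summed to 3.94, 4.13 and 7.66 TPM in Onway 1, 2 and 3, against 29.25, 10.85 and 17.45 TPM in Control 4, 5 and 6, a 3.66-fold lower mean. Each of these groups stood clear of the other. FACIT genes summed to 4.78, 5.06 and 5.41 TPM in Onway 1, 2 and 3, against 14.05, 11.01 and 11.13 TPM in Control 4, 5 and 6, a 2.37-fold lower mean. Network genes summed to 0.06, 0.47 and 0.06 TPM in Onway 1, 2 and 3, against 2.81, 1.24 and 1.71 TPM in Control 4, 5 and 6. That mean was 9.76-fold lower, and 32.0-fold lower without Onway 2. With Col1a1 and Col1a2 left out, the remaining 42 genes summed to 28.80, 34.12 and 30.87 TPM in Onway 1, 2 and 3, against 132.06, 121.30 and 74.86 TPM in Control 4, 5 and 6, a 3.50-fold lower mean. The groups did not overlap without type I either. Fibrillar genes made up 56.75% of the mean collagen TPM in Onway and 86.35% in Control. The anchoring fibril class, Col7a1 alone, had a higher mean in Onway (1.02 TPM) than in Control (0.637 TPM), with overlap. These sums are descriptions and were not tested.

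**Figure D3:**
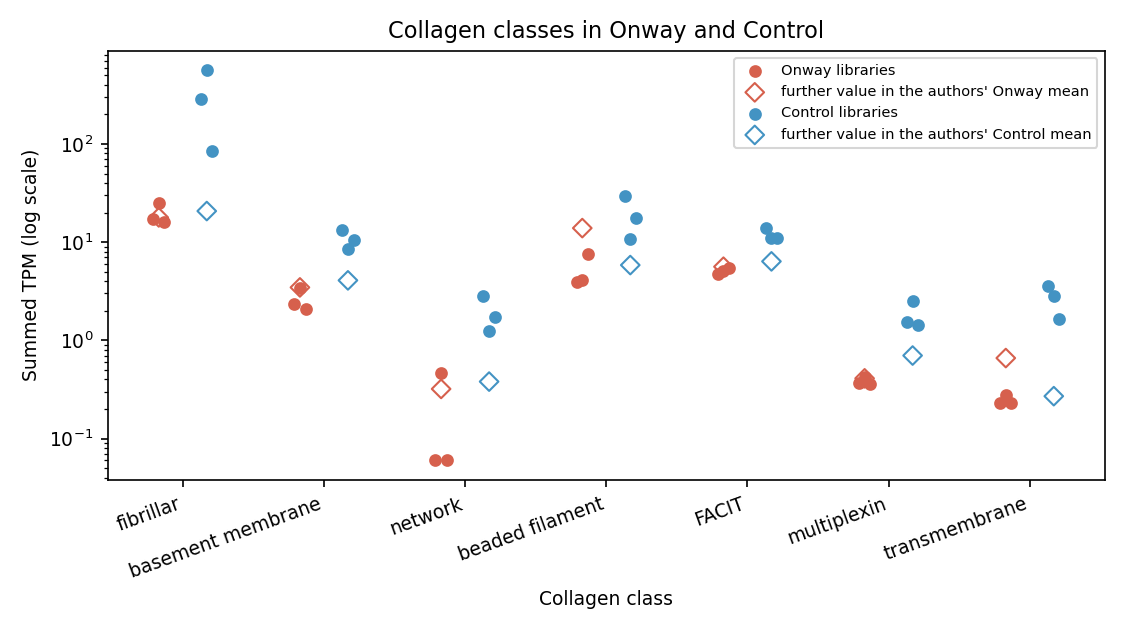
Summed TPM of 7 collagen classes on a log axis, with Onway left of Control in each class. Filled circles are libraries and open diamonds are the further value in the authors' mean, which is not a library. The circles of the groups separate in every class shown, while the Control diamonds lie below the Control circles, for example at 20.73 TPM against 85.43 TPM or more in the fibrillar class. Col7a1 (anchoring fibril), Col26a1 and Col28a1 are not drawn. For Col7a1 the groups overlap, and its further Control value of 1.80 TPM is above every Control library.

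The Control libraries did not rank the collagen genes alike, and 2 patterns held most of the tested genes. In 5 genes (Col1a1, Col1a2, Col5a2, Col11a1 and Col11a2) Control 5 was highest and Control 6 lowest. Control 5 alone held 52.4% to 65.3% of the TPM summed over the Control libraries in these genes, and Control 6 held 6.3% to 10.9%. In 9 genes, among them Col4a1, Col4a2, Col6a1, Col6a2, Col6a5 and Col8a1, Control 4 was highest and Control 5 lowest. For those 6 genes Control 5 held 12.6% to 27.2%. Col2a1, Col12a1 and Col27a1 followed the order Control 4, Control 5, Control 6. With 3 Control libraries these orders were not tested.

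Marker lists of other cell types moved with these genes, and their counts stand beside 2.99% of all tested genes lower in Onway. Many tested genes of these lists, Dmp1 and Fap among them, reached the filter only through their Control values. The counts therefore carry no weight for a list as a whole. The 12 osteoblast and osteocyte genes summed to 18.62, 31.64 and 15.64 TPM in Onway 1, 2 and 3, against 492.37, 1018.7 and 257.02 TPM in Control 4, 5 and 6, and 8 of 10 tested genes were lower. Mepe and Sost of this list were at 0 in all Onway libraries. Its Control order was that of type I collagen, with 57.6% in Control 5 and 14.5% in Control 6. The order was not particular to this list. The chondrocyte list had it as well, though with nearly equal shares in Control 4 (39.3%) and Control 5 (40.7%). The further values of the osteoblast and osteocyte list were 16.38 TPM in Onway and 11.6 TPM in Control. Among its genes, Dmp1, an osteocyte matrix protein, averaged 0.127 ± 0.121 TPM in Onway and 21.5 ± 6.88 TPM in Control (SD, n = 3 each). Runx2 of the same list was not lower in Onway (log2 fold change 0.06, limma adjusted p = 0.944). It had 10.45, 11.88 and 7.58 TPM in Onway 1, 2 and 3, against 9.49, 7.67 and 11.3 TPM in Control 4, 5 and 6. The 12 fibroblast and stroma genes summed to 125.13, 130.95 and 98.97 TPM in Onway 1, 2 and 3, against 365.13, 231.1 and 308.6 TPM in Control 4, 5 and 6, with 6 of 8 tested genes lower and Tcf21 at 0 in all libraries. Further values for it were 182.59 TPM in Onway and 147.63 TPM in Control. Fap, a fibroblast protease, averaged 0.460 ± 0.050 TPM in Onway and 11.6 ± 1.85 TPM in Control. Pi16 and Thy1 of the stroma list were not lower in Onway (log2 fold change 0.34 and 0.3, limma adjusted p = 0.712 and 0.664). Pi16 averaged 86.03 TPM in Onway and 68.18 TPM in Control, with overlap, and held most of the list sum in each Onway library. The 12 endothelial genes summed to 34.23, 40.63 and 42.76 TPM in Onway 1, 2 and 3, against 114.58, 91.23 and 113.41 TPM in Control 4, 5 and 6, with 8 of 12 tested genes lower and further values of 53.24 TPM in Onway and 58.33 TPM in Control. Both lists had Control 4 highest and Control 5 lowest, though the endothelial list had 35.9% in Control 4 and 35.5% in Control 6. That was the Control order of Col4a1, Col4a2, Col6a1 and Col6a2. The red cell list, in which 0 genes were called, had that order as well (47.1%, 20.6% and 32.3% in Control 4, 5 and 6, where Col6a1 had 48.1%, 22.4% and 29.5%). The type VI gene Col6a4 had another order and a nearly even split (30.6%, 33.5% and 35.8% in Control 4, 5 and 6). The 9 smooth muscle and pericyte genes followed the order of Col4a1, at 11.14, 10.27 and 7.35 TPM in Onway 1, 2 and 3 and 28.38, 19.74 and 24.66 TPM in Control 4, 5 and 6. Of 3 tested genes 2 were lower, and the further values were 14.97 TPM in Onway and 11.02 TPM in Control. The other tested gene, Acta2, was not lower in Onway (log2 fold change 0.20, limma adjusted p = 0.769).

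Other lists moved as well, and their counts also stand beside 2.99% lower among all tested genes, with the same filter limit for skeletal muscle. Their Control orders were not those of the lists above. The skeletal muscle and adipocyte lists had the order of Col19a1, though the adipocyte list had 40.5% in Control 6 and 39.1% in Control 4. The megakaryocyte and platelet list had the order of Col2a1, Col12a1 and Col27a1. That order was shared by the B cell list (42.7%, 30.9% and 26.4% in Control 4, 5 and 6) and the epithelium list (43.3%, 30.9% and 25.8%), in which 0 genes were called. The 12 skeletal muscle genes summed to 21.07, 25.05 and 17.31 TPM in Onway 1, 2 and 3, against 2041.14, 747.33 and 4823.22 TPM in Control 4, 5 and 6, and 10 of 11 tested genes were lower. Its further values were 20.83 TPM in Onway and 21.87 TPM in Control. Control 6 held 63.4% of the muscle sum, against 6.3% of Col1a1. The 10 megakaryocyte and platelet genes summed to 162.45, 120.42 and 99.52 TPM in Onway 1, 2 and 3, against 2277.89, 2076.82 and 2016.01 TPM in Control 4, 5 and 6, and all 10 tested genes were lower. Further values for it were 1180.0 TPM in Onway, above all 3 Onway libraries, and 985.6 TPM in Control, below all 3 Control libraries. The 8 adipocyte genes summed to 8.60, 10.67 and 23.72 TPM in Onway 1, 2 and 3, against 81.50, 42.56 and 84.55 TPM in Control 4, 5 and 6, with 0 of 3 tested genes called (smallest limma adjusted p = 0.0526, for Fabp4) and Cidec and Lep at 0 in all Onway libraries. Its further values were 39.65 TPM in Onway and 30.02 TPM in Control. The part of these cell types in the collagen values was not tested.

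Lists of cells that make up most of marrow did not separate the groups. Of 9 tested neutrophil genes, of 6 tested haemoglobin and red cell genes and of 6 tested B cell genes, 0 passed in either direction, with median log2 fold changes of 0.08, −0.11 and 1.35. Neutrophil genes summed to 106324.38 to 189488.84 TPM in Onway and 96579.26 to 209705.65 TPM in Control, and red cell genes to 94600.11 to 340486.1 TPM in Onway and 116841.77 to 267384.16 TPM in Control. B cell genes summed to 149.3, 496.77 and 535.33 TPM in Onway 1, 2 and 3, against 172.36, 124.69 and 106.81 TPM in Control 4, 5 and 6. Epithelial genes, which a 4T1 cell expresses, summed to at most 7.14 TPM in Onway and 8.13 TPM in Control, and 0 of 2 tested genes passed. Neutrophil genes had further values of 161107.72 TPM in Onway and 116931.91 TPM in Control, and red cell genes 188421.0 TPM in Onway and 262245.25 TPM in Control. Those of B cell genes were 236.18 TPM in Onway and 122.48 TPM in Control, and those of epithelial genes 6.58 TPM in Onway and 4.05 TPM in Control. The number of genes at 1 TPM or more ranged from 13354 to 14252 per library.

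**Figure D4:**
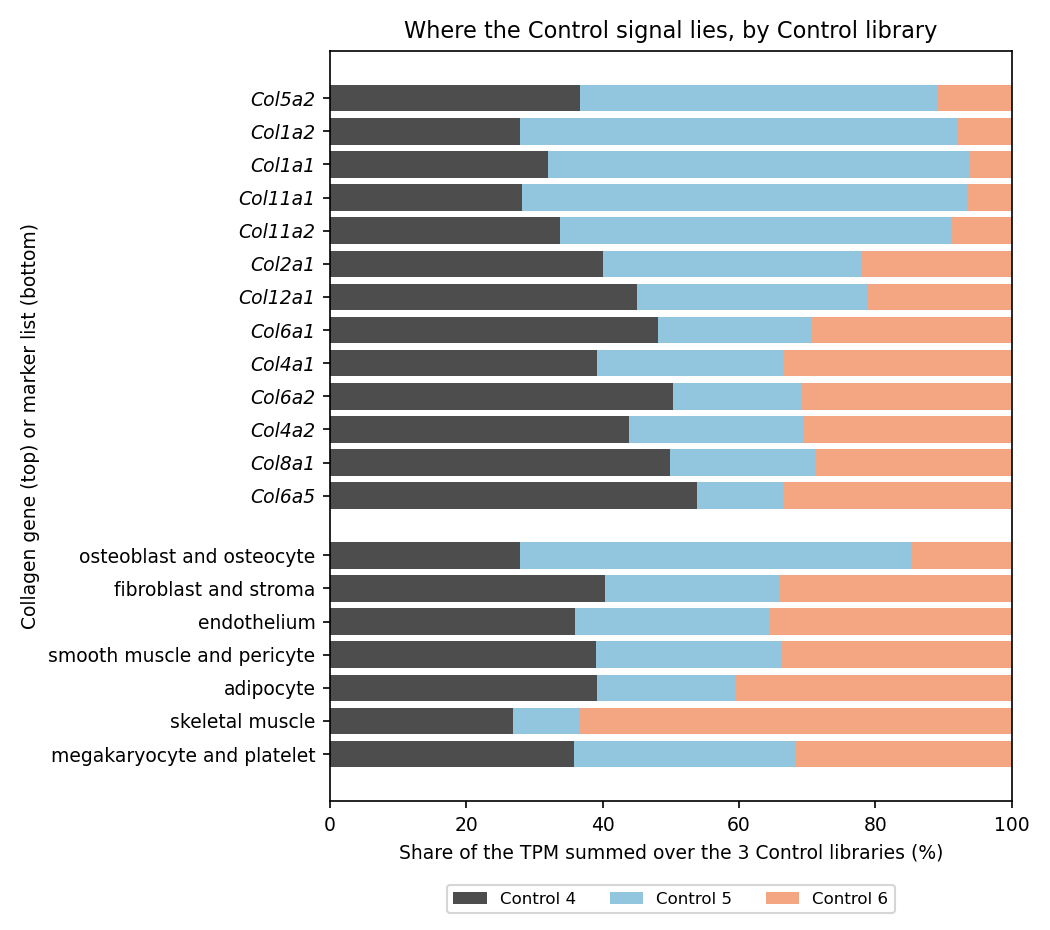
Bars divide the TPM summed over the 3 Control libraries into the share of each library in percent, for collagen genes lower in Onway without overlap (top) and marker lists (bottom). Col1a2 and the osteoblast and osteocyte list both have their widest part in Control 5 (64.2% and 57.6%), while Col6a1, Col4a1 and the stroma list have it in Control 4. The endothelium list is nearly even between Control 4 (35.9%) and Control 6 (35.5%). The megakaryocyte and platelet list has 35.8%, 32.6% and 31.6% in Control 4, 5 and 6. The chondrocyte, red cell, neutrophil, B cell and epithelium lists are not drawn.

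Some of the genes that make, cut and bind collagen were lower in Onway, and the list counts stand beside 2.99% lower and 0.233% higher among all tested genes. Of 19 genes for chain modification and folding, 14 were tested and 4 were lower and 0 higher. The median log2 fold change was −0.37 where that of all tested genes was 0.03. The list summed to 546.79, 607.9 and 391.04 TPM in Onway 1, 2 and 3, against 535.52, 675.74 and 564.63 TPM in Control 4, 5 and 6, with overlap. Its further values were 512.12 TPM in Onway and 475.41 TPM in Control. Serpinh1, the collagen chaperone HSP47, averaged 1.18 ± 0.511 TPM in Onway and 19.0 ± 8.96 TPM in Control (log2 fold change −3.12, limma adjusted p = 0.00420). Plod2, which hydroxylates lysines of the chains, averaged 0.757 ± 0.243 TPM in Onway and 6.92 ± 2.46 TPM in Control (log2 fold change −2.13, limma adjusted p = 0.00657). Fkbp10, a prolyl isomerase that acts on procollagen, fell by 1.94 on the log2 scale (limma adjusted p = 0.00802). Of 17 genes for processing and cross-linking, 11 were tested and 10 were lower and 0 higher (median log2 fold change −1.79). Most of the 10, Lum and Lox among them, reached the filter only through Control, so the count carries no weight for the list as a whole. The list summed to 10.58, 16.65 and 9.80 TPM in Onway 1, 2 and 3, against 219.9, 407.99 and 117.33 TPM in Control 4, 5 and 6. Its further values were 20.25 TPM in Onway and 23.23 TPM in Control. Dcn, the fibril-binding proteoglycan decorin, averaged 1.15 ± 0.240 TPM in Onway and 37.3 ± 11.0 TPM in Control (log2 fold change −4.12, limma adjusted p = 0.000480). Lum, the related lumican, and Lox, which cross-links collagen, fell by 2.80 and 2.31 on the log2 scale (limma adjusted p = 0.00257 and 0.00408).

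Receptors and proteases of collagen included genes of platelets and of bone-resorbing cells. Of 11 receptor genes, 7 were tested and 3 were lower and 0 higher (median log2 fold change −0.96). The 3 lower genes reached the filter only through Control. The list summed to 65.23, 70.4 and 52.52 TPM in Onway 1, 2 and 3, against 126.89, 102.56 and 109.61 TPM in Control 4, 5 and 6. Its further values were 81.21 TPM in Onway and 75.49 TPM in Control. Gp6, the collagen receptor of platelets, had 0.67, 0.92 and 0.23 TPM in Onway 1, 2 and 3, against 13.29, 9.78 and 12.23 TPM in Control 4, 5 and 6 (log2 fold change −3.00, limma adjusted p = 0.000772). Itga2, a collagen-binding integrin subunit, fell by 1.78 on the log2 scale (limma adjusted p = 0.00426), and Mrc2, a collagen uptake receptor, fell by 1.65 (limma adjusted p = 0.010). Of 8 degradation genes, all tested, 4 were lower and 0 higher (median log2 fold change −1.55). Ctsk, the collagen-cutting protease of osteoclasts, had 1.68, 4.28 and 0.98 TPM in Onway 1, 2 and 3, against 155.4, 104.2 and 81.2 TPM in Control 4, 5 and 6 (log2 fold change −5.19, limma adjusted p = 0.00117). Mmp13, a collagenase of bone and cartilage, fell by 4.23 on the log2 scale (limma adjusted p = 0.00138), and Mmp2, a gelatinase, fell by 2.35 (limma adjusted p = 0.00117). Mmp8 and Mmp9 of the degradation list were not lower in Onway (log2 fold change 0.53 and 0.52, limma adjusted p = 0.490 and 0.480). The degradation list summed to 2756.14, 2490.65 and 1349.64 TPM in Onway 1, 2 and 3, against 2071.83, 3636.44 and 2819.15 TPM in Control 4, 5 and 6, with overlap. Its further values were 2182.85 TPM in Onway and 1850.15 TPM in Control. Genes for making and for degrading collagen were thus both represented among the lower genes, but many genes of these lists were not lower.

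The gene sums hide which transcripts carried them, and this mattered for the genes that did not differ. The 44 genes had 242 transcripts in the table, 15 of them newly assembled by the authors. In Col5a1 a single 1281-base transcript, ENSMUST00000238851, which is not in GENCODE M21, held 66.0% of the TPM in Onway and 59.9% in Control. It had 7.03, 3.81 and 5.98 TPM in Onway 1, 2 and 3, against 8.35, 3.64 and 5.38 TPM in Control 4, 5 and 6. The coding transcripts of Col5a1 had 2.54, 2.09 and 1.66 TPM in Onway 1, 2 and 3, against 3.53, 3.64 and 2.19 TPM in Control 4, 5 and 6 and Onway 1 lay above Control 6. Most of the TPM of the highest collagen gene in Onway was thus in this 1 short transcript. In Col19a1 a newly assembled 431-base transcript held 98.2% of the TPM in Onway and 99.0% in Control. Col20a1 was likewise mostly newly assembled, with 0.44, 0.20 and 0.03 TPM in coding transcripts in Onway 1, 2 and 3, against 0.34, 0.72 and 0.60 TPM in Control 4, 5 and 6.

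Coding transcripts of Col4a1, Col11a2 and Col2a1 differed by a larger fold between the group means than the gene sums did. The coding transcripts of Col4a1 had 0.96, 0.81 and 0.63 TPM in Onway 1, 2 and 3, against 6.61, 5.14 and 6.34 TPM in Control 4, 5 and 6. In Onway the rest of the Col4a1 signal lay in transcripts annotated as nonsense-mediated decay, retained intron or processed transcript, with 1.23 TPM of the first kind in Onway 2. Those of Col11a2 had 0.90, 1.19 and 1.05 TPM in Onway 1, 2 and 3, against 9.51, 18.51 and 3.05 TPM in Control 4, 5 and 6. Coding transcripts of Col2a1 had 0.02, 0.05 and 0.03 TPM in Onway 1, 2 and 3, against 15.00, 14.28 and 7.93 TPM in Control 4, 5 and 6. Transcript values were not tested, and how reads were divided between transcripts in the authors' quantification was not stated in the sources used here.

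**Figure D5:**
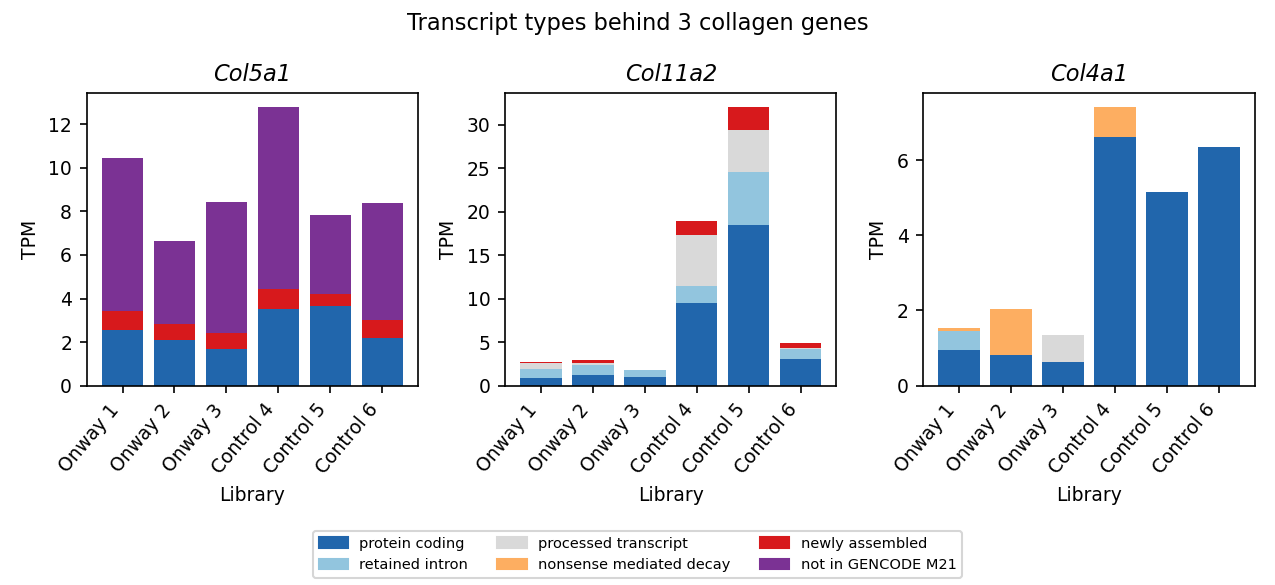
Stacked bars give the TPM of Col5a1, Col11a2 and Col4a1 in each library, Onway left of Control, split by transcript type. In Col5a1 the transcript not in GENCODE M21 (3.64 to 8.35 TPM) fills most of the bar in every library but Control 5, and in Col11a2 and Col4a1 the protein-coding part is larger in every Control library than in every Onway library.

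The paired chains of type I kept a similar ratio while their level differed. The ratio of Col1a1 to Col1a2 was 0.368, 0.758 and 0.536 in Onway 1, 2 and 3, against 0.752, 0.632 and 0.519 in Control 4, 5 and 6, so the ranges overlapped. In type XI, by contrast, the ratio of Col11a1 to Col11a2 was 0.007, 0.017 and 0.016 in Onway 1, 2 and 3, against 0.292, 0.401 and 0.262 in Control 4, 5 and 6, without overlap. Ratios of Onway libraries rest on values of a few TPM or less, and read depth is unknown, so their error cannot be given.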

How the data were processed

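RNA-seq libraries of bone marrow cells (3 Onway, 3 Control) were prepared, per the labels' protocols, with a SMARTer mRNA kit. The authors deposited TPM per transcript for 158850 transcripts, and group means of TPM. The submitters' processing notes name GRCm38 and mm10, while aligner, quantifier and strand setting were not given in the sources used here. Read depth cannot be recovered from TPM, and no counting interval or detection limit is stated. The Onway columns were matched to the libraries by number.

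Transcript TPM was summed per gene. The 14192 genes averaging at least 1 TPM across the 6 libraries were tested on log2(TPM + 1), which understates the change of low genes, with limma 3.58.1 in R 4.3.3 (mean-variance trend, robust moderation, two-sided). P-values were Benjamini-Hochberg adjusted across every tested gene (threshold 0.05). Replicate numbers are not shared between the groups, so no pairing was used.

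Values in every library are given for each tested collagen gene, and for the highest gene of each class with none tested. Some untested genes were named after their values were seen. From each list of other genes the named ones are among the 3 with the smallest p, or were named because they were at 0. Pi16, Thy1, Runx2, Acta2, Mmp8 and Mmp9 were named after their values were seen, as they were not lower in Onway. The collagen genes and the lists (4 collagen pathway lists and 12 marker lists) were chosen with earlier results of these data known. The further value per group was computed after seeing the data. Glycine codons and exons were read from GENCODE M21 coding transcripts. Alternatives changed the pseudocount, the filter, the scaling, the moderation and the libraries included.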

Additional observations from a re-analysis of the deposited data

Results flagged for a closer look

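The further value that enters the authors' Onway mean, which is not a library and was used in no comparison, was above all 3 Control libraries in 3 tested collagen genes. It was 8.01 TPM for Col6a3, where Control libraries had 0.62 to 6.00 TPM and the further Control value was 0.36 TPM. It was 3.42 TPM for Col6a4, where Control libraries had 1.47 to 1.72 TPM and the further Control value was 1.86 TPM. It was 3.05 TPM for Col20a1, where Control libraries had 2.32 to 3.02 TPM and the further Control value was 2.03 TPM. None of these 3 genes passed limma's test between the libraries. Groups of 3 libraries are too small for a test of single outlying libraries.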

How the results depend on the processing

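No paired analysis was possible because the groups share no replicate number. The number of collagen genes lower in Onway was 8, and it became 2 with a filter at a mean of 5 TPM, 13 with library quality weights and 2 without both Control 4 and Onway 3. Leaving out 1 library at a time gave 4 to 10 (5 without Onway 1, 4 without Onway 2, 4 without Onway 3, 5 without Control 4, 9 without Control 5 and 10 without Control 6). Over all genes, 424 were lower and 33 higher. These became 183 and 20 with the filter at 5 TPM, 1906 and 1957 with the weights, and 207 and 97 without both libraries. The higher count was 61 with median-of-ratios scaling and 56 with quantile normalization. Leaving out 1 library gave 246 to 456 lower and 16 to 87 higher genes. The fold of the network sum, Control mean over Onway mean, was 9.76 and ranged from 7.25 to 32.0 with 1 library left out, a choice made after seeing the data. No collagen gene was called higher under any of the 18 alternatives. The filter at 5 TPM left fewer genes to test, and the cause of the other shifts was not tested.

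Of 138 results of the 8 called genes under an alternative, 115 kept the call and 23 did not, and 0 changed direction. Col2a1 and Col6a1 never lost it, with adjusted p-values of 7.20e-05 to 0.0189 and 7.05e-05 to 0.0249. Col5a2 lost it in 7, with no filter (0.0531) and quantile normalization (0.0548) among them. Without both Control 4 and Onway 3, the calls of Col1a2 (0.192), Col4a1 (0.0771), Col5a2 (0.166), Col4a2 (0.108), Col6a2 (0.0681) and Col12a1 (0.0777) ended. Col1a1 passed with a filter at 0.1 TPM (0.0408), no filter (0.0389), a pseudocount of 0.5 (0.0452) and the weights (0.0185), among others. Directions that turned were those of genes with no call. The log2 fold change of Col5a1 was 0.20 with the weights, 0.04 without Control 4 and 0.036 without both libraries. That of Col20a1 was 0.049 with the weights. Col5a3 turned to −0.34 and Col27a1 to −0.18 with the weights, and both turned without Onway 2. Col19a1 turned to 0.19 without Onway 1 and 0.07 without Control 6. With 1 library left out at a time, the ranges were −0.303 to 0.04 for Col5a1, −0.257 to 0.633 for Col5a3, −0.287 to 0.305 for Col27a1 and −0.687 to 0.191 for Col19a1.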
